A study of Mus musculus with 12 samples.

Results

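The 10 genes described here make and load MHC class I molecules: *H2-K1*, *H2-D1*, *B2m*, *Tap1*, *Tap2*, *Tapbp*, *Psmb8*, *Psmb9*, *Psmb10* and *Nlrc5*. They were chosen by name, as 10 of the 24453 genes of the deposited count matrix, and followed across 4 lines of mouse embryonic fibroblasts (MEFs). Nearly all nucleated cells cut a part of their own proteins into peptides and show these at the surface in the groove of MHC class I, where cytotoxic T cells read them. The proteasome makes the peptides, the TAP transporter carries them into the endoplasmic reticulum, and the loading complex places them in a heavy chain held by beta-2-microglobulin. Fibroblasts express the pathway at a low level, and interferons raise it through IRF1 and through NLRC5, a transactivator that docks on the conserved promoters of class I genes.

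RNA was sequenced from 12 cultures, 3 of each line, all grown in medium with 50 µg/mL uridine. All 4 lines share the strain C57BL6/J and, before any Cre, the genotype Pnpt1 neo-flox/neo-flox, and descend from 1 MEF line immortalized with SV40 large T-antigen. TM6 is that parent line, without Cre or ditercalinium. The rho0 line is TM6 that was cultured with 750 ng/mL ditercalinium dichloride dihydrochloride, which removes mitochondrial DNA (mtDNA), for 3 weeks, and then regrown from 1 cell colony. The lines PKO-1 and PKO-6 were grown from single colonies (clones 1 and 6) after TM6 had received an adenovirus that expresses Cre recombinase, which deletes a loxP-flanked exon of *Pnpt1*, the gene of the mitochondrial RNase PNPase. The study reported undetectable PNPase protein and no mtDNA signal in both clones. Replicates are cultures of 1 clone each, so the spread between them does not include the spread between clones, and derivation and clone cannot be told apart.

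Totals were 47164860 to 67991378 counts per library, of which the 10 genes held 0.0328% to 0.0939%. *Pnpt1*, the targeted gene, had 3131 ± 262 normalized counts (SD, n = 3) in TM6, 5271 ± 230 in rho0, 1240 ± 44.3 in PKO-1 and 1944 ± 250 in PKO-6. Normalized counts are counts scaled by TMM to a common library size. Gene counts cover all exons, so they do not read the deletion itself, and the *Pnpt1* level was lower in all 6 PKO libraries than in any TM6 library. Of 14 fibroblast markers *Thy1* was at 2.81 ± 2.55 normalized counts in TM6 and under 1 in the other lines, while *Col1a1*, *Fn1* and *Vim* were abundant in every library. The summed fibroblast markers ranged from 571520 to 620963 normalized counts in TM6, 470961 to 524818 in rho0, 652086 to 700841 in PKO-1 and 376589 to 417238 in PKO-6. Of 13 fibroblast markers tested 1 was called higher and 9 lower in rho0, 7 and 2 in PKO-1, and 2 and 7 in PKO-6. These calls are against TM6, by the edgeR test and thresholds given below for the 10 genes. Among all genes tested 20.7% were called higher and 21.4% lower in rho0, 16.4% and 17.9% in PKO-1, and 21.9% and 19.4% in PKO-6. The marker medians were -1.51 (12 markers), 0.56 and -1.28 on the log2 scale in rho0, PKO-1 and PKO-6. They cover markers with more than 3 counts in the lines compared. *Col3a1* was at -3.32, 0.56 and -3.86 in rho0, PKO-1 and PKO-6, and *Pdgfra* at -2.06, 3.24 and 0.28 (not called). Markers of other cell types moved as well: the keratin *Krt18* averaged 242 normalized counts in TM6, 430 in rho0, 816 in PKO-1 and 8.0 in PKO-6, *Epcam* 4.35, 8.15, 1.46 and 88.0, and *Kdr*, an endothelial receptor, 55.2, 12.8, 22.2 and 142. The 6 epithelial markers summed to 107 to 842 and the 5 endothelial markers to 20.3 to 177 over all libraries. The part of these shifts in the results was not tested.

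Of the 10 genes 7 lie on chromosome 17 of GRCm38, within the H2 complex. In order along the chromosome these are *Tapbp* (33919478 to 33929290, plus strand), *H2-K1* (33996012 to 34000333, minus), *Psmb9* (34182099 to 34187330, minus), *Tap1* (34187556 to 34197225, plus), *Psmb8* (34198195 to 34201454, plus), *Tap2* (34204479 to 34216321, plus) and *H2-D1* (35263094 to 35267497, plus). *B2m* is on chromosome 2 (122147687 to 122153082, plus). *Psmb10* (105935728 to 105938392, minus) and *Nlrc5* (94472763 to 94527272, plus) are on chromosome 8. *H2-D1* overlaps *H2-L* on the same strand and *B2m* overlaps *Patl2* on the opposite strand. *Nlrc5* contains *Mir7072*.

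Promoter sequences of 8 of the 10 genes were in RefSeq's table for GRCm38.p6, and *Tap2* and *Nlrc5* had none there. The 180 bases just before the start of 4 genes that changed and of *Tapbp*, whose level went another way, are shown 5′ to 3′ on the strand of the gene. They cover chr17:34000334-34000513 (minus), chr17:35262914-35263093 (plus), chr2:122147507-122147686 (plus), chr17:34187376-34187555 (plus) and chr17:33919298-33919477 (plus). Capitals mark matches on either strand to GAANNGAAA (a form of the interferon response element) and CCAAT (the Y box). They also mark TGACG, the core of the X2 box and of the cAMP response element. X2 and Y belong to the promoter module that class I genes share.
H2-K1: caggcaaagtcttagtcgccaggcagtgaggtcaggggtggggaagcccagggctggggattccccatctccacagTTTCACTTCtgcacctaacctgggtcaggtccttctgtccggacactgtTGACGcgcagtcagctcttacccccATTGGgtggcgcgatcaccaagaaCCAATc
H2-D1: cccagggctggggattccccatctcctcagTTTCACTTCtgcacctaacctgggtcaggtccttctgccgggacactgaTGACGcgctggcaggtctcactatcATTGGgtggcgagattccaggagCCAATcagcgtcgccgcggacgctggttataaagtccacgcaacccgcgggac
B2m: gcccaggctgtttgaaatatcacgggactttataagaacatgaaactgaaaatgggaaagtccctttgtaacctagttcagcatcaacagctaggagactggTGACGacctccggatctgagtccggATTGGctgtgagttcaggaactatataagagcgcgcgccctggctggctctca
Tap1: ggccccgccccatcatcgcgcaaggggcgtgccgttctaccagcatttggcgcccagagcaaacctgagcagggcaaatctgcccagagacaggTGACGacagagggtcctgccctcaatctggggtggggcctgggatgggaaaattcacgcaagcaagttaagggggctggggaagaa
Tapbp: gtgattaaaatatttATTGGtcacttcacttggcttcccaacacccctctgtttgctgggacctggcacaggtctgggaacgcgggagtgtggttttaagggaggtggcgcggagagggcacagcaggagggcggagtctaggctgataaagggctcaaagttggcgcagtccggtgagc
The *H2-K1* and *H2-D1* promoters aligned over 134 columns with 118 identical bases (88.1%), and hold the same matches in the same order. GAANNGAAA was found in these 2 of 8 promoters, against 7.52% of 32851 promoter windows. These windows were of the same 300 bases (250 before and 50 after the start, both strands). The pattern cannot match other spacings, such as gaaactgaaa in the *B2m* sequence above. The search therefore does not show that *B2m* lacks an interferon element. TGACG was found in 5 of 8 (*H2-K1*, *H2-D1*, *B2m*, *Tap1* and *Psmb9*), against 20.8% of all windows, and CCAAT in 6 of 8 (the same genes and *Tapbp*), against 37.4%. TTCNNNGAA, a STAT site, was found in *Psmb8* alone, against 8.30%. *Tap1* and *Psmb9* start 225 bases apart and point away from each other, so their windows share sequence. A match is a description of letters, not of a bound site.

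Against TM6, rho0 and PKO-6 had more RNA of the heavy chains, of *B2m*, of both TAP subunits, of *Psmb9* and of *Nlrc5*, and less of *Tapbp* and *Psmb10*. PKO-1 took another course: *H2-K1*, *Tap1*, *Tap2*, *Psmb8*, *Tapbp* and *Psmb10* were lower than in TM6, and *Nlrc5* was higher. In the edgeR quasi-likelihood test a gene was called when its adjusted p was under 0.01 and its log2 fold change exceeded 0.5 in size. In rho0 9 of 10 genes were called (7 higher, 2 lower), where 42.1% of the 14026 genes tested were called (20.7% higher, 21.4% lower). In PKO-6 9 were called (7 higher, 2 lower), against 41.3% of all genes (21.9% higher, 19.4% lower). In PKO-1 7 were called (1 higher, 6 lower), against 34.3% (16.4% higher, 17.9% lower). *Psmb9*, counted higher in rho0 and PKO-6, passed the filter on low counts only through those lines, so its calls are no support. *Psmb8*, counted lower in PKO-1, passed it only through the same lines, so that call is no support either. The libraries did not overlap with those of TM6 for 9 of 10 genes in rho0, 9 in PKO-1 and 10 in PKO-6, which was also so for 72.8%, 71.8% and 71.9% of all genes. The median log2 fold change of the 10 genes was 1.2 in rho0, -0.89 in PKO-1 and 1.71 in PKO-6, and that of all genes tested lay within 0.02 of 0 in each comparison. Without *Psmb8* and *Psmb9*, which had 3 or fewer counts in all of PKO-1, the median in PKO-1 was -0.74. Of the 8 genes left, 1 was called higher and 5 lower there. The 3 comparisons share the TM6 libraries, so their likeness is not independent. In these bulk samples a lower share of cells that express a gene and less RNA per cell cannot be told apart.

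**Figure D1:**
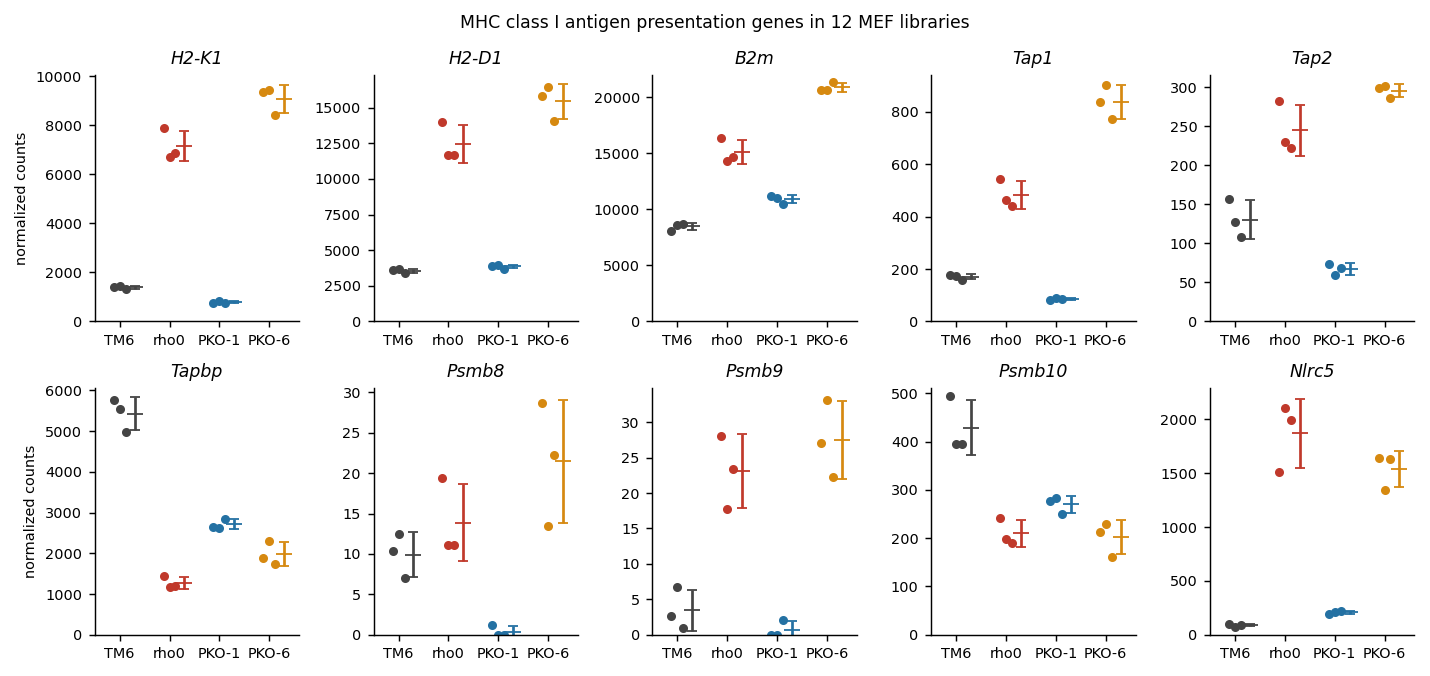
Normalized counts of the 10 genes in 12 libraries, a panel per gene with its own linear axis from 0, and lines TM6, rho0, PKO-1 and PKO-6 along the x axis. Points are libraries (n = 3 a line), and the bar beside them is the mean with its SD; *H2-K1*, *Tap1* and *Tap2* are lowest in PKO-1, and *Tapbp* and *Psmb10* are highest in TM6.

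The heavy chains *H2-K1* and *H2-D1* encode the polypeptides that hold the peptide. The TM6 libraries held 1391, 1444 and 1336 normalized counts of *H2-K1*, and the rho0 libraries 7866, 6717 and 6871. Its PKO-1 libraries held 771, 836 and 770, and those of PKO-6 held 9348, 9421 and 8424. The 4 lines did not overlap, with PKO-1 below TM6 and rho0 and PKO-6 far above it. *H2-K1* was 5.14-fold higher in rho0 than in TM6 (log2 fold change 2.36, SE 0.07, edgeR adjusted p = 5.14e-12) and 6.52-fold higher in PKO-6 (2.70, SE 0.07, edgeR adjusted p = 1.13e-12). In PKO-1 it fell by 0.81 on the log2 scale (SE 0.07, edgeR adjusted p = 3.68e-07).

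*H2-D1* had 3580, 3652 and 3385 normalized counts in the TM6 libraries, 13984, 11671 and 11701 in rho0, 3903, 3959 and 3708 in PKO-1, and 15840, 16412 and 14089 in PKO-6. Its PKO-1 libraries lay just above those of TM6, and rho0 and PKO-6 lay above both. It rose 3.52-fold in rho0 (edgeR adjusted p = 1.70e-10) and 4.36-fold in PKO-6 (edgeR adjusted p = 2.77e-11). In PKO-1 the log2 fold change was 0.12 (SE 0.08, edgeR adjusted p = 0.177) and was not called. It became -0.08 once the median change of chromosome 17 was removed. Per length, the level of *H2-D1* was 2.40 ± 0.02 times that of *H2-K1* in TM6, 1.64 ± 0.04 times in rho0, 4.59 ± 0.16 times in PKO-1 and 1.60 ± 0.03 times in PKO-6 (TPM, n = 3), so the share of the K chain was smallest in PKO-1.

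Class I heavy chains are near-identical paralogs, and the counting could split reads between them. The counts of 32 such rows were therefore also summed. The sum was higher in rho0 (log2 fold change 1.65, edgeR adjusted p = 7.39e-11) and in PKO-6 (1.86, edgeR adjusted p = 1.68e-11). In PKO-1 it was -0.05 (SE 0.06, edgeR adjusted p = 0.508), and its libraries (8151 to 8792 normalized counts) overlapped those of TM6 (8531 to 9258). *H2-K1* and *H2-D1* together held 52.4% to 59.2% of the summed heavy chain counts in TM6 and PKO-1, and 68.3% to 78.0% in rho0 and PKO-6.

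*B2m* encodes beta-2-microglobulin, the light chain without which class I molecules do not reach the surface. It was the most abundant of the 10 genes per length in every line (380.8 ± 17.3 TPM in TM6, 667.8 ± 9.17 in rho0, 468.8 ± 16.8 in PKO-1 and 903.6 ± 88.9 in PKO-6). Its normalized counts were 8072, 8608 and 8718 in TM6, 16341, 14347 and 14687 in rho0, 11205, 10986 and 10492 in PKO-1, and 20638, 20665 and 21349 in PKO-6. No 2 lines overlapped, and all 9 libraries of the derived lines were above TM6. *B2m* rose 1.79-fold in rho0 (edgeR adjusted p = 2.16e-08) and 2.47-fold in PKO-6 (edgeR adjusted p = 2.13e-10). In PKO-1 its log2 fold change of 0.36 (SE 0.06, edgeR adjusted p = 9.33e-05) did not reach the fold threshold. The rise of *B2m* was smaller than that of the heavy chains in rho0 and PKO-6. Per length, *B2m* stood at 2.14 ± 0.20 times the summed heavy chains in TM6, 1.21 ± 0.03 times in rho0, 2.85 ± 0.21 times in PKO-1 and 1.43 ± 0.14 times in PKO-6, without overlap between lines. No test was run on these ratios.

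**Figure D2:**
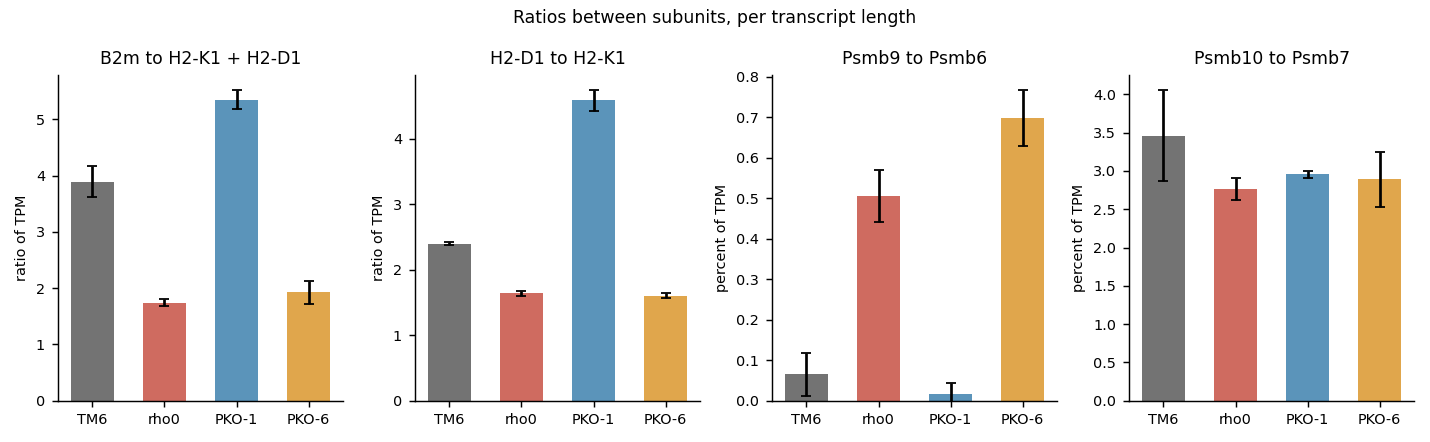
Ratios of TPM between subunits in 4 lines: *B2m* to *H2-K1* plus *H2-D1*, *H2-D1* to *H2-K1*, *Psmb9* as a percentage of *Psmb6*, and *Psmb10* as a percentage of *Psmb7*. Bars are means and error bars SD (n = 3); *H2-D1* per *H2-K1* is 4.59 in PKO-1 and 1.60 in PKO-6.

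*Tap1* and *Tap2* encode the subunits of the transporter that carries peptides across the membrane of the endoplasmic reticulum. *Tap1* had 176, 175 and 160 normalized counts in the TM6 libraries, 541, 462 and 440 in rho0, 80.9, 88.4 and 85.8 in PKO-1, and 835, 901 and 774 in PKO-6. The lines did not overlap and stood in the same order as for *H2-K1*, with PKO-1 lowest and PKO-6 highest. *Tap1* was 2.83-fold higher in rho0 (log2 fold change 1.50, SE 0.10, edgeR adjusted p = 1.39e-08) and 4.91-fold higher in PKO-6 (2.29, SE 0.10, edgeR adjusted p = 1.47e-10), and fell by 1.00 on the log2 scale in PKO-1 (SE 0.11, edgeR adjusted p = 3.72e-06). *Tap2* had 156, 127 and 108 normalized counts in the TM6 libraries, 282, 229 and 222 in rho0, 73.8, 59.6 and 68.3 in PKO-1, and 299, 302 and 286 in PKO-6. PKO-1 was again below TM6, and rho0 and PKO-6 were above it. *Tap2* rose 1.87-fold in rho0 (edgeR adjusted p = 6.15e-05) and 2.26-fold in PKO-6 (edgeR adjusted p = 4.44e-06), and fell by 0.96 on the log2 scale in PKO-1 (edgeR adjusted p = 1.10e-04). Its libraries in rho0 lay just below those in PKO-6 without overlap, and the difference was not called (log2 difference 0.27, SE 0.14, edgeR adjusted p = 0.106).

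*Tapbp* encodes tapasin, which bridges the heavy chain and TAP and edits the bound peptide. It had 5752, 5548 and 4986 normalized counts in the TM6 libraries, 1442, 1183 and 1208 in rho0, 2651, 2622 and 2848 in PKO-1, and 1892, 2300 and 1737 in PKO-6. TM6 was highest, with all 9 other libraries under 3000. It fell by 2.09 on the log2 scale in rho0 (SE 0.10, edgeR adjusted p = 5.95e-10), by 1.00 in PKO-1 (SE 0.10, edgeR adjusted p = 8.43e-07) and by 1.46 in PKO-6 (SE 0.10, edgeR adjusted p = 1.37e-08). Per length, *Tapbp* was close to *H2-D1* in TM6 (64.1 ± 4.59 and 69.0 ± 2.23 TPM), and in PKO-6 it was at 22.4 ± 2.14 TPM where *H2-D1* was at 289.3 ± 3.33.

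*Psmb8*, *Psmb9* and *Psmb10* encode the catalytic subunits of the immunoproteasome, which replace PSMB5, PSMB6 and PSMB7 of the constitutive proteasome. *Psmb8* and *Psmb9* had few counts in every line. *Psmb8* had 12, 13 and 7 counts in the TM6 libraries, 20, 10 and 10 in rho0, 1, 0 and 0 in PKO-1, and 35, 13 and 23 in PKO-6. The summed *Psmb8* counts give a ratio of TM6 to PKO-1 of 27.4 (95% exact interval 4.58 to 1116, counting error only), and the edgeR call was lower in PKO-1 (adjusted p = 4.55e-04). Neither rho0 (edgeR adjusted p = 0.311) nor PKO-6 (log2 fold change 1.12, SE 0.39, edgeR adjusted p = 0.0201) was called against TM6. For PKO-6 the call appeared when replicate 2 of PKO-6 was left out (log2 fold change 1.32).

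*Psmb9* had 3, 7 and 1 counts in the TM6 libraries, 29, 16 and 21 in rho0, 0, 0 and 2 in PKO-1, and 33, 32 and 23 in PKO-6. It passed the filter on low counts through rho0 and PKO-6, where it was highest. The ratio of rho0 to TM6 was 6.80 (95% exact interval 3.56 to 14.3) and that of PKO-6 to TM6 was 7.97 (4.24 to 16.6). Both were called, and since the gene was tested only because of these lines, the calls are a description. TM6 against PKO-1 gave 4.71 (1.03 to 43.7) and was not called (edgeR adjusted p = 0.0849). Even at its highest *Psmb9* stood at 0.699% ± 0.0684 of *Psmb6* per length in PKO-6, against 0.0652% ± 0.0535 in TM6, and *Psmb8* stood at 0.333% ± 0.134 of *Psmb5* in PKO-6.

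*Psmb10* was better expressed and, unlike *Psmb9*, was lower than TM6 in rho0 and PKO-6 as well as in PKO-1. It had 495, 396 and 396 normalized counts in the TM6 libraries, 242, 197 and 191 in rho0, 277, 283 and 250 in PKO-1, and 213, 230 and 162 in PKO-6. TM6 was above all 9 other libraries. *Psmb10* fell by 1.03 on the log2 scale in rho0 (SE 0.14, edgeR adjusted p = 1.96e-05), by 0.67 in PKO-1 (SE 0.14, edgeR adjusted p = 8.76e-04) and by 1.09 in PKO-6 (SE 0.14, edgeR adjusted p = 1.04e-05). Relative to *Psmb7*, its constitutive counterpart, *Psmb10* was at 3.46% ± 0.60 per length in TM6, 2.77% ± 0.14 in rho0, 2.96% ± 0.04 in PKO-1 and 2.89% ± 0.36 in PKO-6.

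*Nlrc5* encodes the class I transactivator. It had 98.6, 76.4 and 94.7 normalized counts in the TM6 libraries, 1508, 2105 and 1994 in rho0, 190, 208 and 222 in PKO-1, and 1641, 1346 and 1634 in PKO-6. All derived lines were above TM6, and PKO-1 stood between TM6 and the other two. Its rise was the largest among the 10 genes in both rho0 (20.7-fold, log2 fold change 4.37, SE 0.15, edgeR adjusted p = 1.76e-11) and PKO-6 (17.1-fold, 4.10, SE 0.15, edgeR adjusted p = 2.17e-11). In PKO-1 *Nlrc5* rose 2.30-fold (log2 fold change 1.2, SE 0.16, edgeR adjusted p = 1.69e-05), the only one of the 10 genes called higher there. Over chromosome 8, which carries *Nlrc5* and *Psmb10*, the median log2 fold change of 739 genes tested was -0.18 in rho0, -0.11 in PKO-1 and -0.43 in PKO-6. Both genes stayed beyond the fold threshold in each line when these medians were taken off. The adjusted p was not recomputed for this.

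**Figure D3:**
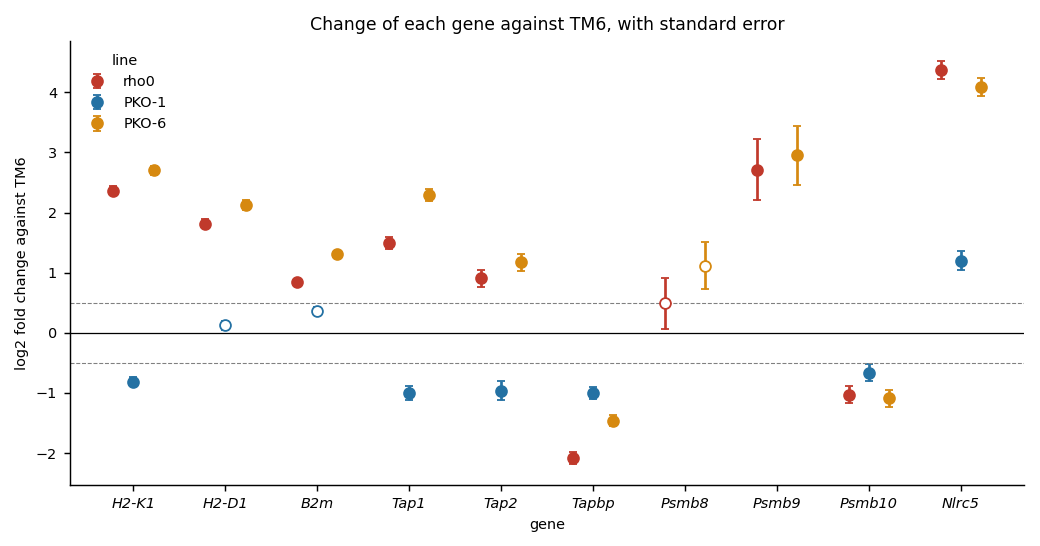
Log2 fold change against TM6 of each gene (x axis) in rho0, PKO-1 and PKO-6, with standard errors; filled points were called, open ones were not, and dashed lines mark the fold threshold. *Psmb8* and *Psmb9* in PKO-1, with 3 or fewer counts, are left out; *H2-K1*, *Tap1* and *Tap2* lie below 0 in PKO-1 and above it in rho0 and PKO-6.

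PKO-1 and PKO-6 carry the same deletion and still differed for most of the pathway. Of the 10 genes 8 were called lower in PKO-1 relative to PKO-6 and 0 higher. Of all genes 29.1% were called (11.5% higher, 17.6% lower). *Psmb8* and *Psmb9*, counted among the 8, passed the filter on low counts only through rho0 and PKO-6, so their calls are no support. Without these genes 6 of 8 were called lower and 0 higher. The libraries of the clones did not overlap for any of the 10, nor for 66.5% of all genes. The log2 difference between the clones was -3.51 for *H2-K1* (SE 0.08, edgeR adjusted p = 4.34e-13), -3.29 for *Tap1* (SE 0.11, edgeR adjusted p = 2.07e-11), -2.89 for *Nlrc5* (SE 0.14, edgeR adjusted p = 6.38e-10), -2.14 for *Tap2* (SE 0.15, edgeR adjusted p = 4.22e-08) and -2.00 for *H2-D1* (SE 0.08, edgeR adjusted p = 1.08e-10). *B2m* differed less (-0.94, SE 0.06, edgeR adjusted p = 1.10e-08). *Psmb8* and *Psmb9* gave PKO-6 to PKO-1 ratios of 60.6 (95% exact interval 10.5 to 2427) and 37.6 (10.1 to 315). *Tapbp* (0.45, edgeR adjusted p = 0.00128) and *Psmb10* (0.42, edgeR adjusted p = 0.0216) were the 2 not called, and *Tapbp* was called without replicate 2 of PKO-6 (0.58).

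PKO-6 and rho0, which were derived in different ways, were nearer to each other over all genes tested. Of these 21.5% were called between them, against 29.1% between the clones and 32.7% between PKO-1 and rho0. The 10 genes lay near the share of all genes. Of the 10 genes 2 were called, both higher in PKO-6, against 21.5% of all genes (13.3% higher, 8.16% lower): *Tap1* (log2 difference 0.80, SE 0.09, edgeR adjusted p = 9.86e-06) and *Tapbp* (0.63, SE 0.10, edgeR adjusted p = 1.63e-04). For 6 of 10 genes the libraries did not overlap, against 56.7% of all genes. The *Tapbp* call was lost without replicate 2 of PKO-6 (0.49). *H2-K1* (0.34), *H2-D1* (0.31) and *B2m* (0.47) were higher in PKO-6 at edgeR adjusted p of 7.22e-04, 0.00354 and 1.73e-05, below the fold threshold, and *Nlrc5* differed by -0.28 (SE 0.12, edgeR adjusted p = 0.0625). Against rho0, PKO-1 had 7 genes called lower and 1, *Tapbp*, higher, where 32.7% of all genes were called (15.1% higher, 17.6% lower). *Psmb8* and *Psmb9*, counted among the 7, were tested only through rho0 and PKO-6, so their calls are no support. Without these genes 5 of 8 were called lower and 1 higher. The libraries of PKO-1 and rho0 did not overlap for any of the 10 genes described here, nor for 69.5% of all genes. In that comparison 2117 genes were called higher and 2473 lower over the whole table, and 1625 and 2918 with upper quartile scaling.

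With both clones pooled as a single PKO group, as the study did with DESeq2, edgeR called 3 of 10 genes against TM6. Of all genes 25.7% were called (13.5% higher, 12.2% lower). *Nlrc5* was higher (log2 fold change 3.28, SE 0.85, edgeR adjusted p = 0.00747), and *Tapbp* (-1.21) and *Psmb10* (-0.86) were lower. *B2m* was not called (0.91, edgeR adjusted p = 0.0116). It was called in the DESeq2 Wald test (0.89, DESeq2 adjusted p = 0.00105), and in edgeR without replicate 1, 2 or 3 of PKO-1. For *H2-K1* the pooled log2 fold change of 1.83 had an SE of 0.89 (edgeR adjusted p = 0.112), and its PKO libraries lie both below and above TM6. The pooled call of *Nlrc5* was lost in 9 of 12 fits that left out 1 library, and with the replicate number as a block (edgeR adjusted p = 0.0188).

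Of 24 other class I heavy chains and class I-like molecules, 8 were too low to be tested. Of the 16 tested, 10 were called higher and 1 lower in rho0, where 20.7% and 21.4% of all genes tested were. In PKO-6 10 were called higher and 0 lower (21.9% and 19.4% of all genes). In PKO-1 2 were called higher and 4 lower (16.4% and 17.9% of all genes). *H2-Q7*, *H2-Q8*, *H2-Q9* and *H2-Bl* are counted higher in rho0 and PKO-6. They passed the filter on low counts only through rho0 or PKO-6, so their calls are no support. The median log2 fold change of the list was 0.80 in rho0, 1.32 in PKO-6 and 0.11 in PKO-1. It covers the 14 genes with more than 3 counts in the lines compared. *H2-Q7*, a Qa-2 chain, had 12.3 ± 5.23 normalized counts in TM6, 291 ± 11.1 in rho0, 1.54 ± 1.84 in PKO-1 and 550 ± 46.0 in PKO-6 (n = 3). *H2-Q8* had 0 counts in all libraries of TM6 and PKO-1, and 43.5 ± 13.5 normalized counts in rho0 and 434 ± 32.7 in PKO-6. *H2-Q5* had 14.6 ± 2.03, 176 ± 29.3, 6.50 ± 1.90 and 261 ± 43.6 in TM6, rho0, PKO-1 and PKO-6. These Q genes are close paralogs, and their reads can be exchanged in counting. In PKO-1 the genes called higher were *H2-M3* (1.37 on the log2 scale), which presents formylated peptides, and *Mr1* (1.38), which presents vitamin B metabolites to MAIT cells, and both were also called higher in rho0 and PKO-6.

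Other partners of the pathway are read against all genes tested, of which 20.7% were called higher and 21.4% lower in rho0, 16.4% and 17.9% in PKO-1, and 21.9% and 19.4% in PKO-6. Of 10 peptide loading and trimming genes 0 were called higher in rho0 and PKO-6; 2 were lower in rho0 and 5 in PKO-6, among them *Calr*, the chaperone calreticulin (-1.35 in rho0, -0.50 in PKO-1 and -1.25 in PKO-6), and *Pdia3*, the disulfide isomerase ERp57 (-0.83 in rho0 and -0.62 in PKO-6). In rho0 that is close to the share of all genes. In PKO-1 2 were higher and 3 lower, with *Erap1*, a peptide trimming protease, at -0.96. Of 20 genes of the constitutive proteasome and its activators, 0 were called higher in any derived line, and 10 were lower in rho0, 6 in PKO-1 and 11 in PKO-6 (medians -0.50, -0.38 and -0.59). *Psmb7* was lower in rho0 (-0.71) and PKO-6 (-0.84), with -0.45 (not called) in PKO-1. Of the proteasome activator subunits, *Psme1* was not called in any of the 3 lines (0.04, 0.33 and 0.08), and *Psme2* was called lower in PKO-6 (-0.63), with -0.47 in rho0 and -0.05 in PKO-1 (not called).

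Of 28 regulators 27 were tested; 8 were called lower and 0 higher in rho0, 7 lower and 1 higher in PKO-1, and 8 lower and 0 higher in PKO-6, against 21.4%, 17.9% and 19.4% of all genes called lower. *Irf1*, the interferon-responsive factor that drives class I and *Nlrc5* transcription, fell in all 3 lines, from 1310 ± 69.5 normalized counts in TM6 to 660 ± 24.3 in rho0 (-0.99), 642 ± 27.5 in PKO-1 (-1.03) and 460 ± 23.8 in PKO-6 (-1.51). *Rfx5*, an RFX subunit with which NLRC5 works, was not called (0.09, 0.01 and -0.01), while *Rfxap*, another RFX subunit, was lower in all 3 (-1.23, -0.95 and -0.93). *Stat3* was lower in all 3 lines too (-1.20, -0.79 and -1.59). *Ezh2*, a histone methyltransferase that can silence class I genes, was the regulator called higher in PKO-1 (0.84). It was also higher in rho0 (0.45, edgeR adjusted p = 3.48e-06) and PKO-6 (0.29, edgeR adjusted p = 1.83e-04), below the fold threshold. The part of *Ezh2* in the results was not tested.

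Interferon stimulated genes outside the pathway were called lower more often than higher. Of 30 listed 25 were tested; 1 was called higher and 15 lower in rho0, 3 higher and 11 lower in PKO-1, and 3 higher and 13 lower in PKO-6, against 21.4%, 17.9% and 19.4% of all genes called lower. Their medians were -0.80, -0.31 and -0.56 over the 24 genes with more than 3 counts in the lines compared. *Cxcl10*, a T cell chemokine, fell from 748 ± 54.1 normalized counts in TM6 to 106 ± 3.50 in rho0, 230 ± 37.9 in PKO-1 and 89.0 ± 5.70 in PKO-6. *Ifit1*, which binds viral RNA caps, fell by 2.73 on the log2 scale in rho0, 1.11 in PKO-1 and 2.82 in PKO-6, and *Ifih1*, the RNA sensor MDA5, changed by -2.05, -1.33 and -2.08. *Ifng* had 0 counts in every library, and *Ifnb1* averaged under 1 in every line. Of 10 interferon signalling genes tested, 4 were lower in rho0, 3 in PKO-1 and 3 in PKO-6, and 1 was higher in PKO-1 (*Socs1*, an inhibitor of JAK kinases, 0.60). Among those lower were both subunits of the interferon gamma receptor, *Ifngr1* (-1.04, -0.70 and -0.58) and *Ifngr2* (-0.80, -0.85 and -0.73).

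**Figure D4:**
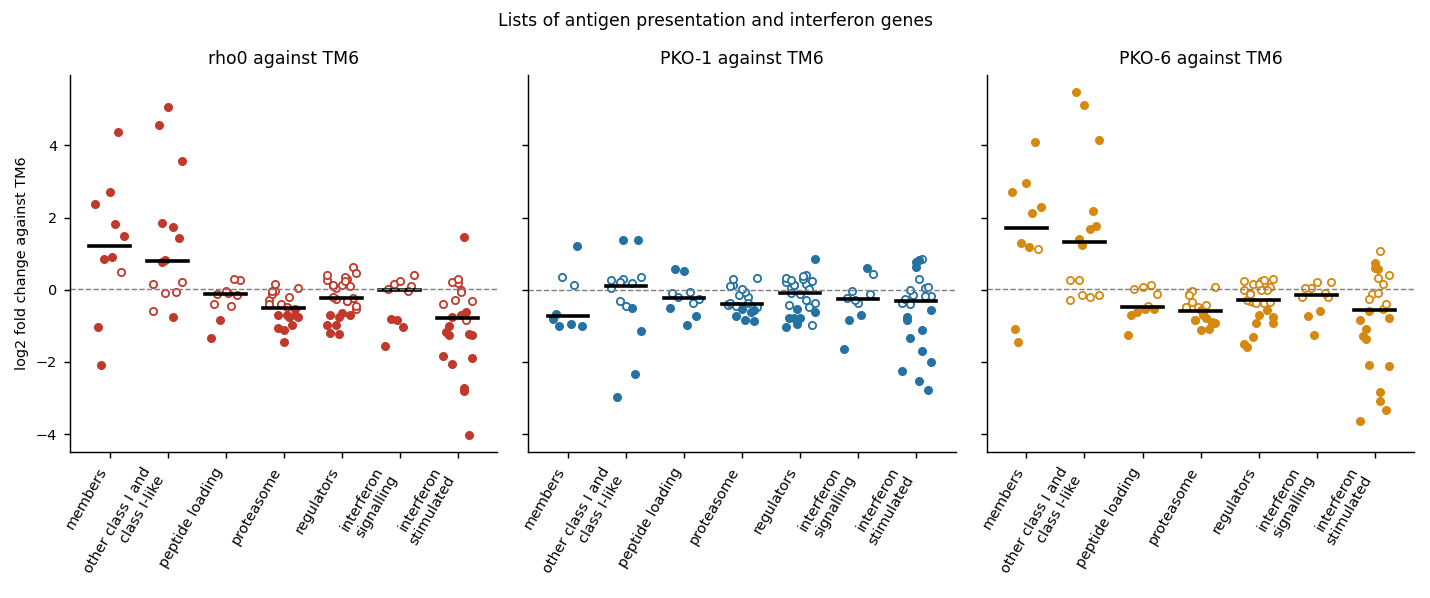
Log2 fold change against TM6 of each tested gene of 7 lists in rho0, PKO-1 and PKO-6; filled points were called, open ones were not, black bars are list medians and the dashed line is the median of all genes tested. Genes with 3 or fewer counts in a compared line are left out; the 10 members and the other class I genes have positive medians in rho0 and PKO-6, and the interferon stimulated genes have negative medians in all 3 panels.

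Of 11 genes of the class II pathway, which belongs to professional antigen presenting cells, 5 were tested and 6 were too low. *Ifi30*, a lysosomal thiol reductase, held most of their counts (1334 ± 22.7 normalized counts in TM6, 677 ± 49.7 in rho0, 1191 ± 80.9 in PKO-1 and 736 ± 39.1 in PKO-6). *Cd74*, the invariant chain, was called higher in PKO-1 (2.31 on the log2 scale) and PKO-6 (2.39), at 116 ± 17.6 and 122 ± 15.7 normalized counts against 23.1 ± 8.09 in TM6 and 23.1 ± 2.39 in rho0. *H2-Eb1*, a class II beta chain, was called higher in PKO-6 (3.89), at 61.7 ± 11.5 normalized counts, and averaged under 4 in the other lines. It passed the filter on low counts only through PKO-6, so this call is no support. *H2-DMb1*, a class II peptide editor in the same locus, had 25.4 ± 3.26 normalized counts in TM6, 205 ± 24.4 in rho0, 12.2 ± 4.86 in PKO-1 and 338 ± 14.8 in PKO-6, lowest in PKO-1 and highest in PKO-6 as for *H2-K1*. The 13 markers of leukocytes and antigen presenting cells summed to 43.9 to 60.5 normalized counts in TM6, 31.0 to 54.3 in rho0, 259 to 318 in PKO-1 and 363 to 428 in PKO-6. The largest of them was *Cd80* (160 ± 13.9 in PKO-1 and 178 ± 10.9 in PKO-6), followed by *Cd74*, and *Adgre1*, *Cd86* and *Cd3e* had 0 counts in every library. *Ptprc* averaged 1.07 normalized counts or less in every line. The part of these markers in the results was not tested.

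Other genes of the H2 interval of chromosome 17 (33919478 to 37483529) included 93 that were tested; 23 were called higher and 6 lower in rho0 (24.7% and 6.45%), 23 and 3 in PKO-1 (24.7% and 3.23%), and 30 and 4 in PKO-6 (32.3% and 4.30%). Of all genes tested 20.7% were called higher and 21.4% lower in rho0, 16.4% and 17.9% in PKO-1, and 21.9% and 19.4% in PKO-6. The median log2 fold change of the 93 was 0.35 in rho0, 0.16 in PKO-1 and 0.28 in PKO-6. Heavy chain genes of this interval are not among the 93.

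Among the 5 genes whose pattern was most like that of the 10, by Pearson's r of log2 CPM with the mean of their standardized levels over 12 libraries, were *Aaed1* (r = 0.987), *F2rl1* (0.987), *Mapkapk3* (0.986) and *Bend3* (0.983), out of 11197 genes averaging 100 normalized counts or more. These libraries fall into 4 lines, so r mostly describes 4 line means and has no p. For single members the most alike were *Thsd4* for *H2-K1* (0.998), *Atf4*, a stress-induced transcription factor, for *H2-D1* (0.998), *Zfp51* for *B2m* (0.992), *Gadd45a* for *Nlrc5* (0.995), *Tgfb3* for *Tapbp* (0.997), *Tmco4* for *Tap2* (0.985), *Pgp* for *Psmb10* (0.985) and *Cebpb* for *Psmb9* (0.968). For *Tap1* it was *Aaed1* (0.991).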

How the data were processed

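RNA of 12 cultures (TM6, rho0, PKO-1 and PKO-6, 3 each) was depleted of ribosomal RNA, made into strand-specific libraries in technical duplicate and sequenced with paired ends by the authors, who merged the duplicates. What they deposited are expected counts, estimated by RSEM 1.2.25 with Bowtie2 from RefSeq transcripts of mm10 (GRCm38) and collapsed to genes, without normalization. Whether counting used strand was not given in the sources used here. TPM values are those the authors deposited per transcript, summed here per gene for levels between genes. FPKM values and the percentage that each isoform holds of its gene, which the authors deposited beside them, were not used. Of the gene table's values 12.5% had decimals, so counts were rounded. *Rn45s* held 12.2% to 19.6% of the totals, which ranged from 47164860 to 67991378 counts (median 55405647).

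Tests used R 4.3.3 and edgeR 4.0.16: 14026 genes passed filterByExpr (minimum count 10), scaling was by TMM, and quasi-likelihood tests compared the 4 lines in a single fit, or 3 groups with both clones pooled. Adjusted p are Benjamini-Hochberg values over all genes tested. The standard error is the log2 fold change divided by the square root of F. Script steps were tested on simulated data. Intervals for *Psmb8* and *Psmb9* are exact 95% intervals for the ratio of summed counts. Alternatives were DESeq2 1.42.0, other scalings, no filter, a replicate block, left-out libraries, other thresholds and removal of chromosome medians. That removal shifted log2 fold changes only and left each adjusted p as it was.

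The members and lists were chosen with earlier results of these data known. From each list at most 3 called genes per comparison with the largest change and a mean of at least 100 normalized counts were named, along with *Irf1*, *Rfx5*, *Psmb5*, *Psmb6*, *Psmb7*, *Psme1* and *Psme2*; *Ifng*, *Ifnb1* and the markers were named after their values were seen. Some genes that this rule names are not reported here. The heavy chain sum leaves out *H2-Ke6*, which is no heavy chain. Replicates are biological triplicates per the labels, each a culture of its line, and p-values measure the spread between cultures. Pairs of replicates differed beyond sampling noise (chi-square per degree of freedom 4.55 to 133), so each counted as its own sample. The labels do not say that a replicate number marks a shared batch. Deviations of same-numbered libraries correlated over 0.1 in all 3 pairs for TM6 with PKO-6 only (0.21 to 0.25).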

Additional observations from a re-analysis of the deposited data

Results flagged for a closer look

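For 8 of the 10 genes the change against TM6 differed between the PKO clones by the test of the difference itself, the edgeR contrast of PKO-1 with PKO-6. In that contrast 29.1% of all genes tested were called (11.5% higher, 17.6% lower). The difference in log2 fold change was -3.51 for *H2-K1*, -2.00 for *H2-D1*, -0.94 for *B2m*, -3.29 for *Tap1*, -2.14 for *Tap2*, -5.48 for *Psmb8*, -5.02 for *Psmb9* and -2.89 for *Nlrc5*. The fitted values of *Psmb8* and *Psmb9* rest on 1 and 2 counts over all of PKO-1 and depend on the prior count. Both genes passed the filter on low counts only through rho0 and PKO-6, so their differences are no support. Without *Psmb8* and *Psmb9*, 6 of 8 genes were called. For 5 of the 8 (*H2-K1*, *Tap1*, *Tap2*, *Psmb8* and *Psmb9*) the change had the opposite sign in the clones, with PKO-1 below TM6 and PKO-6 above it. In PKO-1 *Psmb9*, and in PKO-6 *Psmb8*, were not called against TM6. The clones also differed in a marker sum of fibroblasts (652086 to 700841 normalized counts in PKO-1 and 376589 to 417238 in PKO-6), in *Krt18* (816 and 8.0 on average), *Epcam* (1.46 and 88.0) and *Kdr* (22.2 and 142). The part of these markers in the difference was not tested.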

How the results depend on the processing

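Of 1558 recomputed values 1494 kept their direction and side of the threshold, 29 passed it, 22 lost it and 13 changed sign. At an adjusted p below 0.05 alone, 10088 genes were called in rho0, 9038 in PKO-1 and 9829 in PKO-6 against TM6, 8611 between the clones, 9252 and 7646 in PKO-1 and PKO-6 against rho0, and 6759 for pooled PKO. With an absolute log2 fold change above 1 these were 2944, 2274, 3038, 1950, 2202, 1510 and 1788. Members called in PKO-1 against TM6 were 3 with the fold above 1. In PKO-6 against rho0 they were 5 at 0.05 alone, 0 with the fold above 1, and 1 to 3 with a library left out (1 without replicate 2 of PKO-6). For pooled PKO they were 5 at 0.05 alone, 7 with PKO-1 alone and 9 with PKO-6 alone, where 5749 genes were called.

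Signs changed for *H2-D1* in PKO-1 against TM6 with chromosome medians removed (-0.076), for *Psmb10* in PKO-6 against rho0 (-0.18 to 0.07 with a library left out, 0.03 without replicate 1 of rho0 and 0.075 without replicate 3 of PKO-6, 0.21 with chromosome medians removed) and for *Psmb8* in pooled PKO (-0.39 to 0.43 with a library left out, negative without replicate 3 of TM6 and without replicate 1 or 3 of PKO-6, -0.048 with chromosome medians removed). PKO-1 alone in place of pooled PKO gave -0.81 for *H2-K1*, -0.96 for *Tap2*, -4.36 for *Psmb8* and -2.06 for *Psmb9*, and *Tap1* fell by 1.00, since it leaves out the clone with the opposite sign. For the others the cause was not tested. *B2m* in PKO-1 against rho0 (-0.47) was called with upper quartile scaling (-0.57), with totals without *Rn45s* (-0.52) and without replicate 2 or 3 of rho0 (-0.52 and -0.50), and in PKO-6 against rho0 without replicate 1 of rho0 (0.50). Upper quartile scaling moved the median of all genes in rho0 against TM6 to 0.12.

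Over all lines 10 of 18 pairs of same-numbered libraries had a correlation of deviations over 0.1 (range -0.39 to 0.25), and 5 of 12 libraries correlated best with their own number. TM6 and PKO-6 were the only lines whose 3 pairs were all over 0.1; with a replicate block the count of genes called between them moved by less than 1%, and the 10 members kept their side of the threshold. A replicate block left 69 of 70 member results on their side of the threshold, and the pooled *Nlrc5* change (3.28) lost its call (edgeR adjusted p = 0.0188). Depth limits *Psmb8* and *Psmb9*, whose PKO-1 counts allow wide ratios only.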
